A study of Mus musculus with 12 samples.

Results

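For the core pluripotency and Myc-Lin28 factors of mouse stem cells, 10 genes were followed on 12 one-colour expression arrays, each hybridised with the Cy3-labelled RNA of 1 sample. They are Pou5f1, Sox2, Sall4, Lin28a, Utf1, Mycn, Myc, L1td1, Zfp281 and Trim28, taken as every probe that the array's design names for 1 of them: 13 of the 55681 probes, 1 probe each for 8 of the genes, 3 for Sall4 and 2 for Trim28. The arrays held 4 samples of mouse embryonic stem cells (mESC) labelled Tbx3-low and 4 labelled Tbx3-high, 2 samples of induced pluripotent stem cells (iPSC) labelled Tbx3 null and 2 labelled Tbx3 wildtype. The labels used here name no strain, medium, treatment or iPSC clone, and they tell neither how high and low cells were parted nor which stretch of Tbx3 the null cells lack. Since separate cultures are not named either, each p-value reflects the scatter among these arrays alone, which may be technical.

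Pou5f1 (Oct4) and Sox2 are DNA-binding factors that occupy many enhancers together and hold stem cells in the pluripotent state, with the zinc finger protein Sall4 among their partners. Myc and Mycn dimerise with Max on E-box sequences and drive genes of ribosome production and metabolism. Lin28a is an RNA-binding protein that blocks the maturation of let-7 microRNAs, which repress growth genes, Myc family members among them. Tbx3, which the labels name as low or high in the mESC and as null or wildtype in the iPSC, is a T-box transcription factor of the same network.

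The 3 Sall4 probes lie at separate places on the minus strand of chromosome 2 (build mm9, as in the array files) and are shown because their changes in the iPSC ranged from 0.33 to 1.06. One, at chr2:168574333-168574392, and a second, at chr2:168578172-168578231, each list 3 RefSeq transcripts. The third, at chr2:168580437-168580496, lists 1. The second and the third are shown with the Pou5f1 probe, at chr17:35647280-35647340 on the plus strand, whose 60 letters are placed over a span of 61 bases. The letters are those of the probes, 5′ to 3′.
Sall4, 3-transcript probe at 168578172: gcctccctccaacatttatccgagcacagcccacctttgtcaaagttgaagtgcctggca
Sall4, 1-transcript probe at 168580437: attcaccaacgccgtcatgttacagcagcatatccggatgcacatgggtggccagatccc
Pou5f1 probe: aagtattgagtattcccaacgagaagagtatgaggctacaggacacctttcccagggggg

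RefSeq's table of promoters (GRCm38.p6) held entries for 8 of the 10 genes in 9 windows, Pou5f1 having 2; Myc and Sall4 had none. The 250 bases before the start site are shown for Mycn and Lin28a, which passed the test in both comparisons described below. Both genes lie on the minus strand, Mycn's window at chr12:12941837-12942086 and Lin28a's at chr4:134018817-134019066. Capitals mark matches to the motifs searched.
Mycn: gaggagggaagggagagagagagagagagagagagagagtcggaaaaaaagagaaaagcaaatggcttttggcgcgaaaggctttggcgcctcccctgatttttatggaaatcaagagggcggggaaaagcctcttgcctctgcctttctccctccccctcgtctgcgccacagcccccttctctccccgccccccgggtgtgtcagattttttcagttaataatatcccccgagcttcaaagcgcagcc
Lin28a: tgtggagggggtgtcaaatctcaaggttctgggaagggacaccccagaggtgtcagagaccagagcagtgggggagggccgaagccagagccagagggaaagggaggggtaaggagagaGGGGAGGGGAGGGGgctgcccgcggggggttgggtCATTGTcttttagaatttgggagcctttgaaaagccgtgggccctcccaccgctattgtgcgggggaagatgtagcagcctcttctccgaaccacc
The motifs were searched on both strands. The E-box CACGTG bound by Myc-Max was in 0 of the 9 windows (6.02% of all 32851 windows of this length), the T-box half-site GGTGTGA in 0 (3.33%) and the octamer ATGCAAAT in 0 (1.6%). The SOX site CATTGT was in 2 (10.69%), beginning 96 bases before the start of Lin28a and, on the other strand, 158 bases before the second start of Pou5f1. The G-rich element CCCCTCCCC, searched because Zfp281 binds such sequence, was in 1 (5.75%): on the other strand it matched the Lin28a window at overlapping places, 131 and 126 bases before the start. These matches are descriptions of the letters only.

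The level given for a probe is log2 of its processed signal over the 75th percentile of the signals on the same array, so 0 stands for that percentile. Levels of different probes are not comparable, and mESC and iPSC levels are not compared because the cell types lay on separate slides. A change is a difference of group means on this log2 scale, its standard error (SE) comes from limma, and a probe is called at a Benjamini-Hochberg adjusted p under 0.05 over all probes tested. The 75th percentile ran from 314 to 458 (mESC) and from 699.8 to 1007 (iPSC), and 55.9% to 68.6% of spots were well above background, most on the wildtype iPSC arrays. No spot was saturated; the number of arrays limits the precision. Tbx3 itself, read by 1 probe, changed by 1.33 ± 0.08 (SE, adjusted p = 7.25e-07, limma) from Tbx3-low to Tbx3-high mESC. In the null-labelled iPSC it was not lower but was called higher (0.32 ± 0.11, adjusted p = 0.0482, limma). Whether the probe lies in the stretch that was removed is unknown, so it does not check that label. Markers of pluripotent cells were well above background on every array, 10 of 10. On both slides each group lay in its own columns, so column and group cannot be told apart, nor in bulk RNA can fewer cells of a type from less RNA per cell.

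In the mESC, Mycn was lower in the Tbx3-high cells and was the member with the widest change; Utf1 was slightly lower and Lin28a slightly higher. Of the 12 probes tested, 3 were called, 1 higher and 2 lower, which is 25% where 25.9% of the 30691 probes tested on these arrays were called (14.5% higher and 11.4% lower). The share is near the background. In the iPSC, Mycn, Lin28a and Trim28 were higher in the null-labelled cells and Myc was lower. Sall4 was higher by 2 of its 3 probes, the brightest not being called. There 6 of the 12 probes were called, 5 higher and 1 lower, which is 50% where 28.3% of 36712 probes were called (15.5% higher and 12.9% lower). Of these calls 2 are Sall4 probes. Counted by gene, each read by its brightest probe, 3 were higher, 1 was lower and 6 were not called. Over all 17673 genes tested 34.7% were called (19.4% higher and 15.3% lower), so the count by gene is near the background. The median change of the 12 probes was 0.12 in the mESC and 0.38 in the iPSC, beside 0.04 and 0.05 over all probes tested. These medians were not computed for the members under other scalings. Over the alternatives listed below, the iPSC changes of Sox2, Utf1 and Zfp281 went as low as -0.02, -0.03 and -0.06. Those of the other tested probes kept their sign. The second Trim28-named probe, at chr7:13609067-13609124 on the minus strand, opposite to the plus strand of the other Trim28 probe, was not well above background on any array and was not tested.

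**Figure D1:**
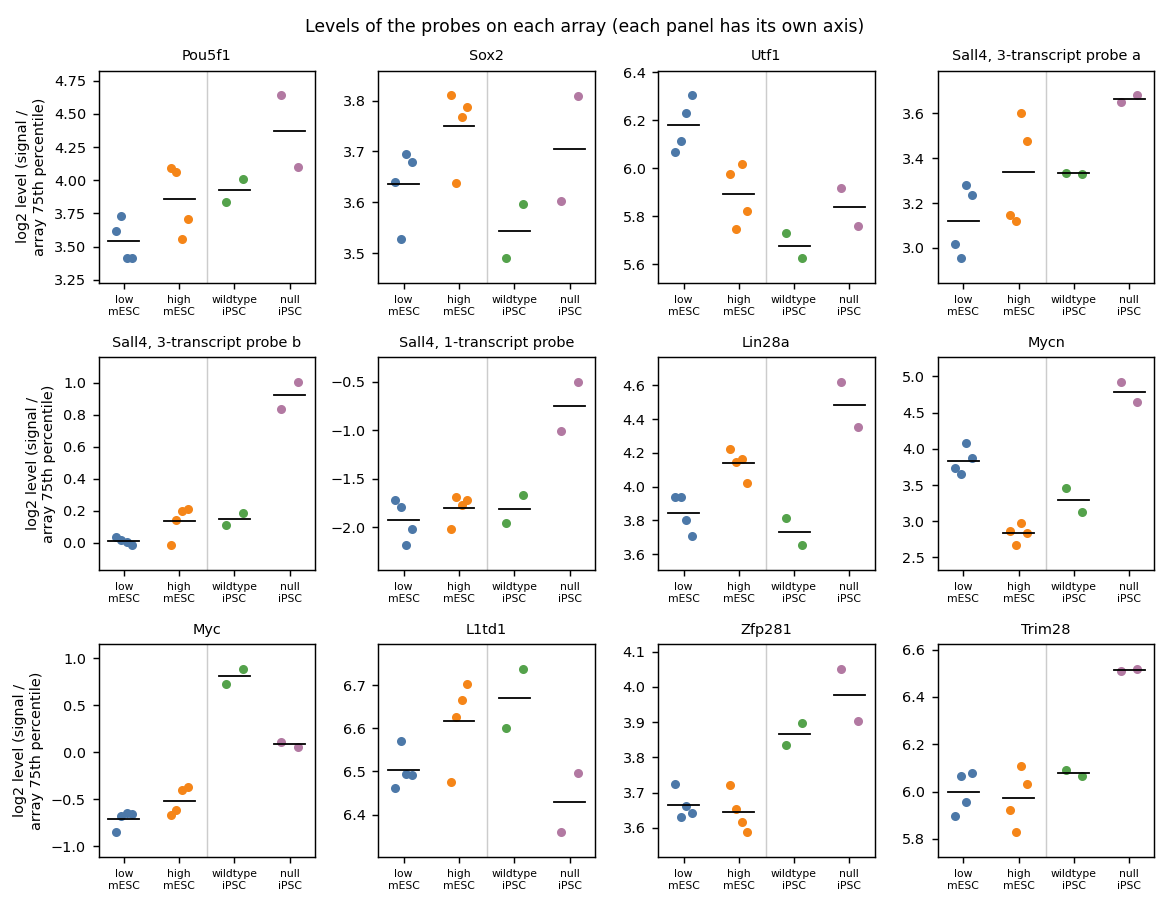
Level of each tested probe on each array (log2 of signal over the array's 75th percentile, own axis per panel); points are arrays (4 in each mESC group, 2 in each iPSC group) and lines are group means. Sall4 probe a is the one at 168574333 and probe b the one at 168578172; Mycn levels of the Tbx3-high arrays (2.67 to 2.98) lie wholly under those of the Tbx3-low arrays (3.66 to 4.08).

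Among the Myc factors, the Mycn probe (chr12:12943193-12943252) stood at 3.73, 3.66, 4.08 and 3.88 on the Tbx3-low arrays 1 to 4. On the Tbx3-high arrays 1 to 4 it stood at 2.86, 2.67, 2.98 and 2.84. Every high array thus lay under every low array, and the change was -1.0 ± 0.12 (SE, adjusted p = 0.000114, limma), a level 2.0-fold lower in the Tbx3-high cells. Within the arrays of slide row 1 the change was -0.93 and within row 2 it was -1.07. In the iPSC the probe stood at 4.92 and 4.65 on the null-labelled arrays and at 3.46 and 3.13 on the wildtype arrays. The null-labelled arrays were both above the wildtype ones, with a change of 1.5 ± 0.17 (SE, adjusted p = 0.000124, limma), or 2.82-fold. The Tbx3 probe itself read higher in the null-labelled than in the wildtype iPSC. By the labels alone, the group named for more Tbx3 had the lower Mycn level in both cell types. The test of whether these changes differ in size, after turning the iPSC change to wildtype minus null, gave 0.50 ± 0.21 (SE, adjusted p = 0.121, limma).

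The Myc probe passed the test in the iPSC, where it was lower in the null-labelled cells. The probe (chr15:61821417-61821476, spotted at 2 places on each array, listing 4 transcripts) stood at -0.85, -0.67, -0.64 and -0.66 on the Tbx3-low arrays and at -0.67, -0.62, -0.40 and -0.37 on the Tbx3-high arrays. These ranges overlap, and the change of 0.19 ± 0.09 was not called (SE, adjusted p = 0.137, limma). On the null-labelled iPSC arrays it stood at 0.11 and 0.06, and on the wildtype arrays at 0.73 and 0.89. The null-labelled arrays were lower, by a change of -0.72 ± 0.13 (SE, adjusted p = 0.0018, limma) or 1.65-fold. In the iPSC, therefore, Mycn was higher and Myc lower in the same 2 arrays.

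Of the Myc-Max network (Max, its Mxd and Mnt partners, Mga, the Mlx branch and Mycl), 10 genes were tested. In the mESC 0 were called by limma, where 31.1% of the 15827 genes tested were (17.2% higher and 13.9% lower). In the iPSC 3 were higher and 2 lower, where 34.7% of 17673 genes were called (19.4% higher and 15.3% lower). Mycl, the third Myc family gene, was the most changed at -1.86 ± 0.21 (SE, adjusted p = 0.000111, limma). Mlx, a Max-like dimerisation partner, was at 0.74 ± 0.12 and Mlxip, which pairs with Mlx, at 0.68 ± 0.19.

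Among 25 genes commonly listed as Myc targets, 3 were higher and 3 lower in the Tbx3-high mESC, where 31.1% of all genes were called (17.2% higher and 13.9% lower). Their median change was -0.07 beside 0.04 over all genes. Pes1, a ribosome assembly factor, fell by 0.62 ± 0.09 (SE) and Srm, spermidine synthase, by 0.55 ± 0.08, while Tert, the catalytic subunit of telomerase, rose by 0.37 ± 0.10. In the iPSC, 8 of the 25 were higher and 1 lower in the null-labelled cells, near the 34.7% of all genes called there (19.4% higher and 15.3% lower). The median was 0.17 beside 0.07 over all genes. Srm was at 0.87 ± 0.11 and Bop1, a partner of Pes1 in ribosome assembly, at 0.66 ± 0.09, and Tert, here the gene that was lower, at -0.71 ± 0.15. Under quantile normalization 5 were higher and 1 lower, and the median was -0.01. Srm and Tert thus moved in opposite directions in each comparison. The 2 comparisons share no arrays, though the fit gives them 1 estimate of the spread.

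Lin28a (chr4:133559245-133559304) stood at 3.94, 3.94, 3.80 and 3.71 on the Tbx3-low mESC arrays and at 4.23, 4.15, 4.16 and 4.02 on the Tbx3-high arrays. The high arrays all lay above the low ones, by 0.29 ± 0.09 (SE, adjusted p = 0.0308, limma) or 1.22-fold. This call ended under quantile normalization (0.26, adjusted p = 0.0592), with the deposited series table (0.23, adjusted p = 0.078), without the filter on dim probes, within either slide row, and without Tbx3-low replicate 3 or 4 or Tbx3-high replicate 1, 2 or 3. In the iPSC it stood at 4.62 and 4.35 on the null-labelled arrays and at 3.81 and 3.65 on the wildtype arrays. The null-labelled arrays were higher by 0.75 ± 0.13 (SE, adjusted p = 0.00147, limma) or 1.68-fold. The mESC change and the wildtype minus null change therefore ran in opposite directions, and the test of their difference gave 1.04 ± 0.15 (SE, adjusted p = 0.00104, limma).

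Around Lin28a, 15 genes of let-7 processing and let-7 targets were tested, and 1 was higher and 2 lower in the Tbx3-high mESC, a smaller share than the 31.1% of all genes called there. Arid3a, a let-7 target that encodes a DNA-binding protein, fell by 0.61 ± 0.07 (SE), and Dis3l2, the exonuclease that degrades let-7 precursors tagged through Lin28, rose by 0.29 ± 0.07. Hmga1, a chromatin protein, was called at -0.18 ± 0.06, and with normexp correction or the series table's values 1 gene of the list was lower in place of 2. The null-labelled iPSC had 5 higher and 3 lower, where 34.7% of all genes were called. Hmga2, a chromatin protein and let-7 target, was the most changed, at -3.16 ± 0.16 (SE, adjusted p = 4.11e-07, limma), while its relative Hmga1 was at 0.58 ± 0.08 and the mRNA-binding protein gene Igf2bp2 at -0.56 ± 0.18. Quantile normalization left 2 higher and 3 lower. The other genes called higher, the same way as Lin28a, were its paralogue Lin28b at 0.51 ± 0.13 (SE), Igf2bp1 at 0.53 ± 0.10, Arid3b at 0.42 ± 0.11 and Arid3a at 0.36 ± 0.10, and the other called lower was Tut4, an enzyme that tags let-7 precursors, at -0.51 ± 0.10.

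**Figure D2:**
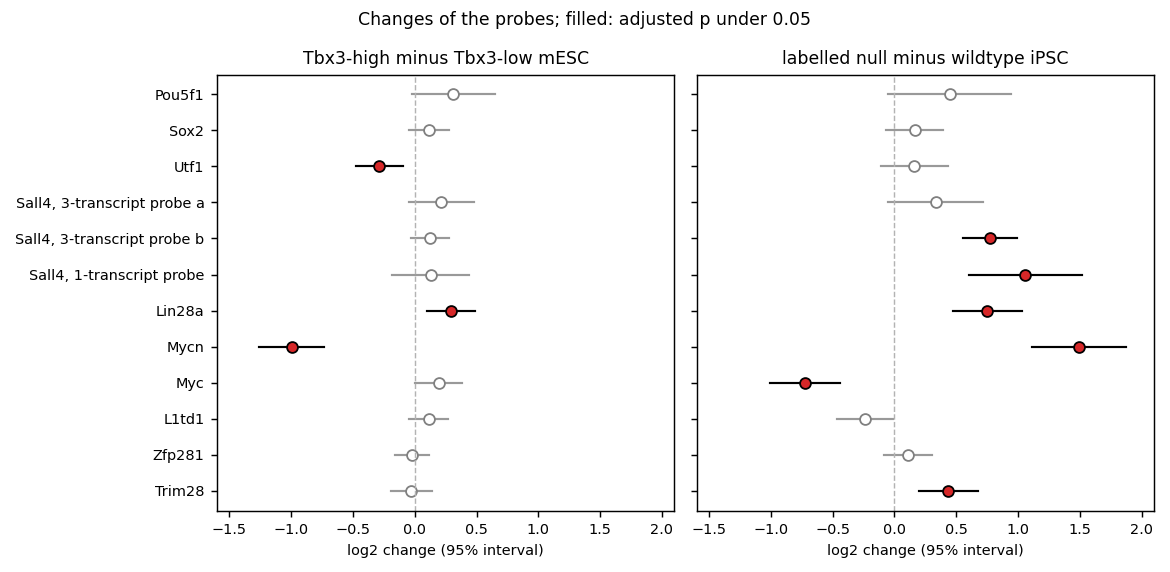
Change of each tested probe (log2, points) with its 95% interval, Tbx3-high minus Tbx3-low mESC on the left and null-labelled minus wildtype iPSC on the right; red points are called. Mycn lies at -1.0 on the left and 1.5 on the right, and the 3 Sall4 probes spread from 0.33 to 1.06 on the right.

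The Sall4 probes showed no called change in the mESC. The brightest, at 168574333, stood at 3.02, 2.95, 3.28 and 3.24 on the Tbx3-low arrays and at 3.15, 3.12, 3.60 and 3.48 on the Tbx3-high arrays, overlapping, with a change of 0.22 ± 0.12 (SE, adjusted p = 0.219, limma). Arrays 3 and 4 of each group, which share slide row 2, were the higher ones, and with slide row as a block the same change was called (adjusted p = 0.0179, limma). The probes at 168578172 and 168580437 changed by 0.12 ± 0.07 and 0.13 ± 0.14 and were not called.

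In the iPSC the 3 Sall4 probes all had higher mean levels in the null-labelled cells, and 2 of them were called. The probe at 168578172 stood at 0.84 and 1.0 on the null-labelled arrays and at 0.11 and 0.18 on the wildtype arrays, a change of 0.77 ± 0.10 (SE, adjusted p = 0.000268, limma). The 1-transcript probe at 168580437 stood at -1.0 and -0.50 against -1.96 and -1.66, a change of 1.06 ± 0.21 (SE, adjusted p = 0.00351, limma). Both of these, printed above, were higher in the null-labelled cells without overlap. The brightest probe stood at 3.65 and 3.68 against 3.33 and 3.33, and its change of 0.33 ± 0.17 was not called (SE, adjusted p = 0.192, limma). That SE uses 1 spread shared by all 12 arrays. The probe's standard deviation was 0.02 in the null-labelled and 0.003 in the wildtype iPSC. In the Tbx3-low and Tbx3-high mESC it was 0.16 and 0.24. The brightest probe was called in 3 of 22 alternatives. Among the 22, the mean of the gene's probes (0.72) does not read this probe alone. Whether the 3 changes differ from each other was not tested. For the difference between cell types, the probe at 168578172 gave 0.89 ± 0.12 (SE, adjusted p = 0.000639, limma), the one at 168580437 gave 1.19 ± 0.25 (adjusted p = 0.00766) and the brightest 0.55 ± 0.21 (adjusted p = 0.0927).

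Zfp281 (chr1:138524591-138524650), a zinc finger repressor of the network, was the member with the smallest change in the mESC. It stood between 3.63 and 3.73 on the Tbx3-low arrays and between 3.59 and 3.72 on the Tbx3-high arrays. The ranges nearly coincide, and the change was -0.02 ± 0.06 with a 95% interval from -0.16 to 0.12 (adjusted p = 0.847, limma). In the iPSC it stood at 4.05 and 3.90 on the null-labelled and at 3.84 and 3.90 on the wildtype arrays, a change of 0.11 with an interval from -0.08 to 0.30.

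Both Sall4 and Zfp281 proteins bind the NuRD chromatin remodelling complex, and 12 genes of the complex and its partners were tested, 11 without Nacc1, a BTB domain protein that is not a subunit. In the Tbx3-high mESC 0 were higher and 4 lower, beside 17.2% and 13.9% of all genes tested: among them the Mta scaffold genes Mta3 at -0.59 ± 0.09 (SE) and Mta1 at -0.48 ± 0.09, and the histone chaperone gene Rbbp7 at -0.44 ± 0.08. The null-labelled iPSC had 6 higher and 0 lower by limma, beside 19.4% and 15.3% of all genes, with Mta1 at 0.94 ± 0.13, the methyl-binding protein gene Mbd3 at 0.58 ± 0.10 and Nacc1 at 0.55 ± 0.12. With normexp correction, as with the series table, the count was 4 higher and 0 lower. The median of the list was -0.05 in the mESC and 0.29 in the iPSC.

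Pou5f1 stood at 3.62, 3.73, 3.41 and 3.41 on the Tbx3-low mESC arrays and at 4.09, 4.06, 3.56 and 3.71 on the Tbx3-high arrays. In both groups arrays 1 and 2, of slide row 1, were the higher ones, and the groups overlapped. The change of 0.31 ± 0.15 was not called (SE, adjusted p = 0.164, limma), also with slide row as a block (adjusted p = 0.0574). On the null-labelled iPSC arrays it stood at 4.64 and 4.10 and on the wildtype arrays at 3.84 and 4.01. The change of 0.45 ± 0.22 was not called (SE, adjusted p = 0.174, limma), and it was 0.18 without null-labelled replicate 1 and 0.72 without null-labelled replicate 2. Its 95% interval, -0.05 to 0.94, includes 0.

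Sox2 (chr3:34550773-34550832) ranged from 3.53 to 3.70 on the Tbx3-low and from 3.64 to 3.81 on the Tbx3-high mESC arrays. Its change was 0.12 ± 0.07 with an interval from -0.05 to 0.28 (adjusted p = 0.294, limma). In the iPSC it stood at 3.60 and 3.81 on the null-labelled and at 3.49 and 3.60 on the wildtype arrays, a change of 0.16 ± 0.11 that was not called (SE, adjusted p = 0.301, limma).

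Utf1 (chr7:147130950-147131009), a chromatin-associated gene that Oct4 and Sox2 bind, stood at 6.07, 6.11, 6.23 and 6.30 on the Tbx3-low mESC arrays. On the Tbx3-high arrays it stood at 5.98, 5.75, 6.02 and 5.82, all lower, with a change of -0.29 ± 0.09 (SE, adjusted p = 0.0298, limma) or 1.22-fold. The call ended without the filter on dim probes, within either slide row, and without Tbx3-low replicate 3 or 4 or Tbx3-high replicate 2 or 4. In the iPSC its change was 0.16 ± 0.12 and was not called (SE, adjusted p = 0.385, limma).

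L1td1 (chr4:98405084-98405143), an RNA-binding protein gene derived from a LINE-1 element, stood between 6.46 and 6.57 on the Tbx3-low and between 6.48 and 6.70 on the Tbx3-high mESC arrays, a change of 0.11 ± 0.07 (SE, adjusted p = 0.285, limma). In the iPSC it stood at 6.36 and 6.50 on the null-labelled and at 6.6 and 6.74 on the wildtype arrays. The null-labelled arrays were both lower, and the change of -0.24 ± 0.10 was not called (SE, adjusted p = 0.108, limma). It was called under quantile normalization (-0.44, adjusted p = 0.00547, limma) and with the series table's values (-0.46, adjusted p = 0.00516).

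Of 12 genes known as joint targets of Oct4 and Sox2, 4 were higher and 3 lower in the Tbx3-high mESC, where 31.1% of all genes were called. Lefty1, a secreted antagonist of Nodal, was at -3.00 ± 0.13 (SE, adjusted p = 1.01e-07, limma), the secreted phosphoprotein gene Spp1 at 1.0 ± 0.09 and Nr0b1, a nuclear receptor of the network, at 0.65 ± 0.09. In the null-labelled iPSC 4 were higher and 1 lower, near the 34.7% of all genes, with Lefty1 at 1.09 ± 0.19, Spp1 at -0.86 ± 0.12 and Tcf7l1, a Wnt pathway repressor, at 0.59 ± 0.15. Under quantile normalization 2 were higher and 3 lower. Lefty1 and Spp1 each moved in opposite directions in the comparisons as coded, high minus low and null minus wildtype.

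**Figure D3:**
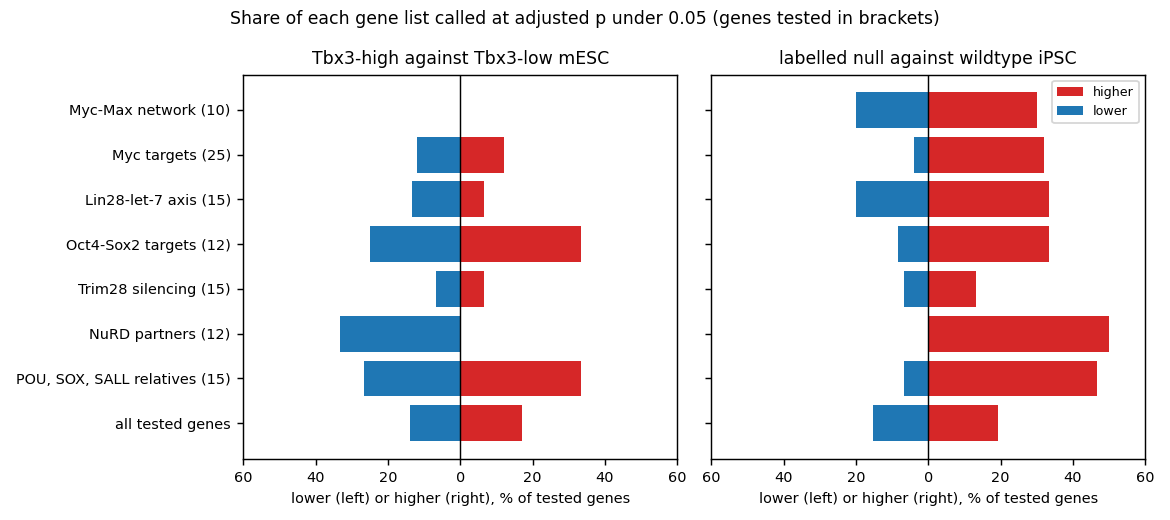
Share of each gene list called higher (red, right) or lower (blue, left), in percent of the genes tested, with all genes tested in the lowest bar; mESC on the left, iPSC on the right. In the NuRD list 4 of 12 genes are lower on the left and 6 of 12 higher on the right. The Myc-Max network has 0 of 10 called on the left. The POU, SOX, SALL bar on the left counts Pou2f3 and Sall3 as higher. Both entered that test only through the Tbx3-high group, where they are high.

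Of the other POU, SOX and SALL genes and Zfp148, a relative of Zfp281, 15 were tested, and 5 were higher and 4 lower in the Tbx3-high mESC (17.2% and 13.9% of all genes). Sox1, a neural SOX gene, was at 1.32 ± 0.08 (SE). Pou2f3 and Sall3, also counted there, had signal well above background on 3 of 4 and 1 of 4 Tbx3-low arrays. On the Tbx3-high arrays each had it on 4 of 4. Both thus entered the mESC test only through the group where they are high, and no size is given for them there. In the null-labelled iPSC 7 were higher and 1 lower (19.4% and 15.3% of all genes), with the SOX group C genes Sox12 at 1.65 ± 0.18 and Sox11 at 1.33 ± 0.14 and Pou2f3 at -1.17 ± 0.22.

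Neural markers were read beside these genes. In the null-labelled iPSC 4 of 6 were higher and 0 lower by limma, beside 19.4% and 15.3% of all genes, with Tubb3, a neuronal tubulin, at 1.55 ± 0.12 (SE) and Map2 at 1.07 ± 0.20. One of the 4, Pax6, was well above background on both null-labelled and neither wildtype array, so the filter admitted it only through the group where it is high; without it the count is 3 of 5. Their summed level was 7.91 to 8.56 times the 75th percentile on the null-labelled arrays and 3.26 to 3.51 times on the wildtype arrays, with Neurog2 not above background on any array. The mESC markers went both ways, beside 17.2% of all genes higher and 13.9% lower: 1 of 5 was higher (Sox1, also in the POU, SOX and SALL list) and 2 were lower, Nes at -1.45 ± 0.11 and Map2 at -0.50 ± 0.14, with sums of 6.01 to 6.46 on the low and 4.50 to 5.45 on the high arrays. Their part in the changes of Mycn, Lin28a and Sall4 was not tested.

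Of the primitive endoderm markers, 4 of 8 were higher and 0 lower in the Tbx3-high mESC (17.2% and 13.9% of all genes), with Gata6 at 1.49 ± 0.13 (SE) and Hnf4a at 0.77 ± 0.09. Pdgfra, also counted there, was well above background on 1 of 4 Tbx3-low and 4 of 4 Tbx3-high arrays and so was tested only through the group where it is high; no size is given for it. The summed level of the 8 was 1.87 to 2.27 on the low and 2.89 to 3.56 on the high arrays. On the null-labelled arrays 4 of 8 were lower and 0 higher (15.3% and 19.4% of all genes), with Gata6 at -1.90 ± 0.19 and Hnf4a at -1.13 ± 0.13. Pdgfra, also counted there, was at least 2.21-fold lower. Pdgfra and Foxa2 were above background on neither null-labelled array, so both were tested only through the wildtype group. The sums were 1.87 to 2.13 on the null-labelled and 3.91 to 4.36 on the wildtype arrays. Of the pluripotent cell markers 4 of 10 were higher and 1 lower in the Tbx3-high mESC (Tfcp2l1 at 1.0 ± 0.12, Esrrb at 0.50 ± 0.07 and Zfp42 at 0.46 ± 0.07), beside 17.2% and 13.9% of all genes. In the null-labelled iPSC 3 of 10 were higher and 0 lower by limma (Fbxo15 at 0.42 ± 0.10, Klf2 at 0.32 ± 0.10 and Fgf4 at 0.31 ± 0.10), beside 19.4% and 15.3% of all genes. Under quantile normalization 0 were higher and 2 lower. The part of these markers in the members' changes was not tested.

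Of the fibroblast markers, which would mark feeder cells, 8 of 12 were tested in the mESC and 2 were higher (Pdgfrb at 1.83 ± 0.10 and Col1a1 at 1.54 ± 0.11) and 1 lower (Tagln at -1.36 ± 0.11). Of all genes tested there 17.2% were higher and 13.9% lower. In the iPSC 3 of 11 were higher and 2 lower, beside 19.4% and 15.3% of all genes, with Col1a1 at -2.32 ± 0.15 and Pdgfrb at -2.22 ± 0.15. Lum, counted among the higher, read at least 1.51-fold higher in the null-labelled cells. It was well above background on both null-labelled and neither wildtype array, so it was tested only through the group where it is high. Col3a1 was above background on neither null-labelled array and was tested only through the wildtype group. Postn was not above background on any array. On Tbx3-high replicate 2, Thy1 read 26.6 times the 75th percentile, where the Tbx3-low arrays read 1.86 to 2.19. Without Thy1 the summed level was 4.53 to 5.76 on the Tbx3-low, 3.09 to 3.74 on the Tbx3-high, 4.64 to 5.30 on the null-labelled and 4.65 to 5.0 on the wildtype arrays.

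Trim28 (chr7:13615914-13616069, 60 letters over a span of 156 bases), the co-repressor that zinc finger proteins bring to retroelements, stood at 5.90, 6.07, 5.96 and 6.08 on the Tbx3-low and at 5.92, 5.83, 6.11 and 6.03 on the Tbx3-high mESC arrays. These overlap, and the change was -0.03 ± 0.08 with an interval from -0.19 to 0.14 (adjusted p = 0.838, limma). In the iPSC it stood at 6.51 and 6.52 on the null-labelled and at 6.09 and 6.07 on the wildtype arrays, 0.44 ± 0.11 higher (SE, adjusted p = 0.0128, limma). That call ended without any 1 of the 4 iPSC arrays (adjusted p from 0.0539 to 0.0617), and the change was 0.21 under quantile normalization (adjusted p = 0.183) and with the series table (adjusted p = 0.201).

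Of 15 genes that act with Trim28 in silencing, 1 was higher and 1 lower in the Tbx3-high mESC (31.1% of all genes were called): Zfp57, the zinc finger protein that guards imprints, at 1.09 ± 0.12 (SE) and the heterochromatin protein gene Cbx1 at -0.27 ± 0.07. The null-labelled iPSC had 2 higher and 1 lower (34.7% of all genes were called), Zfp809, which recognises retroviral DNA, at 0.93 ± 0.10, Cbx1 at 0.49 ± 0.11 and Resf1, a retroelement silencing factor, at -0.61 ± 0.10. The other 13 and 12 genes of the list did not pass.

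Over all members, 3 of the 12 tested probes had mESC groups that did not overlap, 25% beside 29.2% of all probes tested. In the iPSC, with 2 arrays a group, 12 of 12 did not overlap, beside 66.4%. In the test of the difference between the cell types, 4 of 12 probes were called, 3 higher and 1 lower, where 23% of 37071 probes were called (12.8% higher and 10.1% lower). They were both Sall4 probes that had passed in the iPSC, Lin28a and Myc, the last at -0.53 ± 0.15 (SE, adjusted p = 0.0321, limma). The Myc call ended in 10 of 23 alternatives. Trim28 lay just outside at 0.41 ± 0.13 (adjusted p = 0.0504), and Pou5f1 at 0.76 ± 0.27 (adjusted p = 0.0732). With slide row as a block 7 probes were called, the added ones being Pou5f1 (adjusted p = 0.0214, limma), Trim28 (adjusted p = 0.0295) and the brightest Sall4 probe (adjusted p = 0.00383). Over all probes that block gave 9884 called of 37071.

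**Figure D4:**
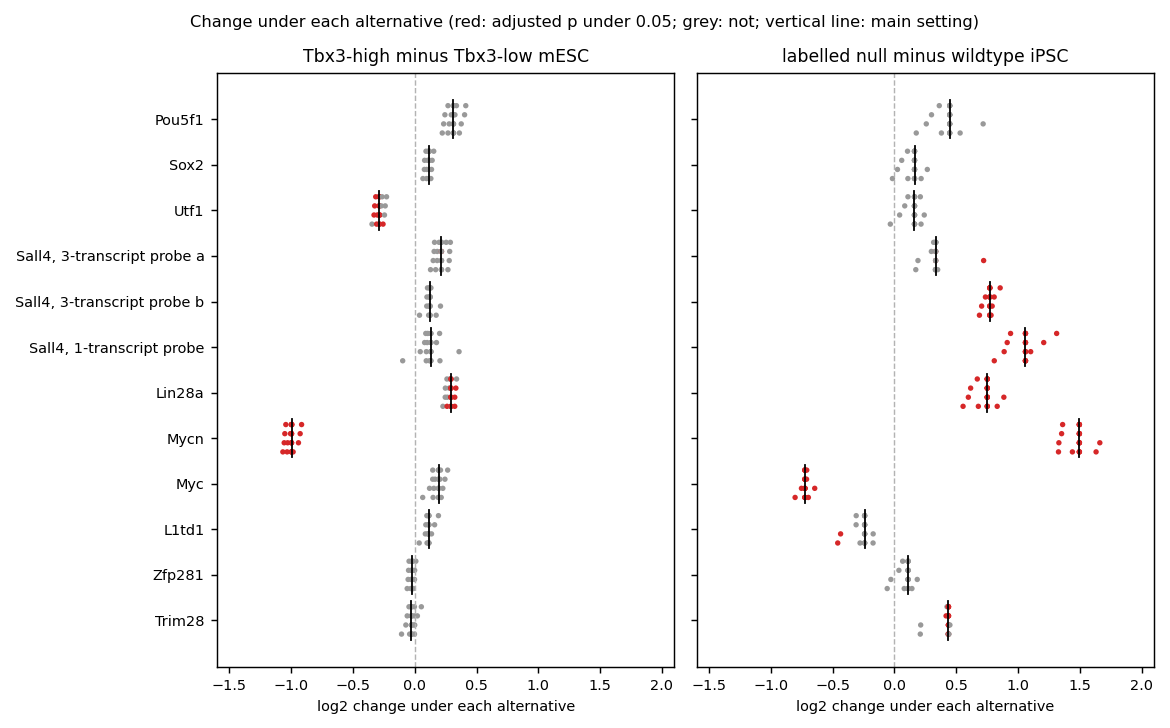
Change of each probe (log2) under every processing alternative (dots, red where adjusted p is under 0.05, grey where not; spread vertically for sight only) and in the reported fit (vertical line). Mycn stays between -1.07 and -0.92 on the left and between 1.33 and 1.66 on the right. Sall4 probe a was called in 3 of 22 alternatives on the right, and its dot at 0.72 is the mean of the gene's probes.

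The genes whose levels ran most like those of each member were found by Pearson correlation over the 12 arrays, centred within mESC and within iPSC, among 14829 genes above background on every array. The arrays share slides and groups, so these values are descriptions. For Mycn they were Ank2 (r = 0.9956), Dusp3 (0.991) and Emb (0.991). Emb, an adhesion molecule gene, changed by -1.11 in the mESC and 1.74 in the iPSC. For Lin28a they were Rnf165 (0.977), Rprd1b (0.974) and Cul9 (0.972), with Cul9 at 1.04 and 2.78. For Myc they were Hsdl2 (0.984), Ikbip (0.972) and Mmgt2 (0.972). For Trim28 they were Ddx1 (0.981), Rnh1 and Ilrun, for Sall4 Sfxn1 (0.983), Dgcr2 and Exoc3, and for Utf1 Gnl2 (0.97), Amz1 and Zfp239. The likest were less close for Sox2 (Ttc19, 0.845, Mrtfa and Nudt3), L1td1 (Mterf1b, 0.936, Lrba and Tmem59), Pou5f1 (2310058N22Rik, 0.946, 4933435F18Rik and Ergic2) and Zfp281 (4932416E17, 0.947, Zranb2 and Sfxn5).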

How the data were processed

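Gene expression was measured on 12 Agilent one-colour arrays: 4 Tbx3-low and 4 Tbx3-high mESC, 2 null-labelled and 2 wildtype iPSC. Total RNA came from RNeasy columns, and Cy3 went onto 50 ng of it by Agilent's low-input amplification kit, per the labels' protocols. The deposited spot intensity values were made by Agilent Feature Extraction 10.7.3.1, per the file headers: a background-subtracted processed signal not scaled between arrays, the mean signal and the median local background, with probes placed on mm9. The authors' deposited series table holds log2 values, made by steps that no label or header records; its column medians were 6.61 (mESC) and 6.58 to 6.59 (iPSC), and its scaling and background treatment stay unknown, so it was an alternative only.

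Values were log2 of the processed signal minus the array's 75th percentile over spots that are not controls. Outlier-marked spots were set to missing and spots of a probe averaged. A probe was tested when every array of 1 or both groups compared had it well above background. All 12 arrays were fitted with 4 group means in limma 3.58.1 (R 4.3.3), with Benjamini-Hochberg adjustment over all probes tested; in gene lists and gene counts each gene is read by its brightest probe with that adjusted p. A bound written "at least" takes an array without such signal at its own value or at the dimmest value there that was above background, if that is higher. Names came from RefSeq's gene table (27741 probes by accession, 3347 by symbol, 300 by synonym; 1605 as named in the files and 22688 unnamed). The fit was tested on simulated data with 200 changed probes, fewer than were called here. It recovered 56% of changes of 0.5 and 84% of changes of 1 in the mESC. The shares were 5% and 43% in the iPSC and 1% and 32% for the difference.

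The members and the gene lists were chosen with earlier results of these data known. Genes named are every member probe, Tbx3, the 3 most changed called genes of each list and comparison, and the 3 genes most alike each member. Postn, Neurog2, Thy1, Col3a1, Foxa2, Lin28b, Igf2bp1, Arid3b, Tut4 and the iPSC value of Arid3a were named after their values were seen. Alternatives were quantile normalization, normexp correction with an offset of 50, the series table, no filter on dim probes, outlier-marked spots kept, other choices of probe per gene, each cell type alone, blocks of replicate number or slide row, each row alone, an adjusted p under 0.01 and leaving out each array. The remaining columns of the files were not used.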

Additional observations from a re-analysis of the deposited data

Results flagged for a closer look

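The difference between the change from Tbx3-low to Tbx3-high mESC and the change from null-labelled to wildtype iPSC passed limma's test of the difference itself for 4 of 12 probes. It was 0.894 for the Sall4 probe at 168578172 (adjusted p = 0.000639), 1.19 for the Sall4 probe at 168580437 (adjusted p = 0.00766), 1.04 for Lin28a (adjusted p = 0.00104) and -0.532 for Myc (adjusted p = 0.0321). For the Sall4 probes the mESC part was 0.12 and 0.13, and the iPSC part, coded as null minus wildtype, 0.77 and 1.06. For Lin28a the parts were 0.29 in the mESC and 0.75, coded as null minus wildtype, in the iPSC. Over all probes tested for the difference, 23% of 37071 were called (12.8% higher and 10.1% lower). Counted by gene, each read by its brightest probe, 1 member was higher, 1 was lower and 8 were not called. With 1 probe per gene tested, 5956 of all 17837 genes were called.

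On the Tbx3-low mESC arrays the Myc level of replicate 1, at -0.85, stood apart from the others, which lay between -0.67 and -0.64: its gap to the nearest was 0.846 of the range, above Dixon's 95% critical value for 4 samples. It was 1 of 26 groups tested this way, and chance gives about 1 in 20.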

How the results depend on the processing

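No called change of a member reversed its direction. Mycn was called in all 24 alternatives in the mESC (-1.07 to -0.92) and all 22 in the iPSC (1.33 to 1.66), and Lin28a and Myc in all 22 in the iPSC. The mESC count of 3 called probes was 1 without the filter on dim probes, which tests more probes, 1 within slide row 1, 1 within slide row 2, where fewer arrays are fitted, and 1 at an adjusted p under 0.01. Leaving out 1 array gave 1 to 3 called probes in the mESC, 5 to 6 in the iPSC and 3 to 5 for the difference; the mESC count was 1 without Tbx3-low replicate 3, Tbx3-low replicate 4 or Tbx3-high replicate 2. With slide row as a block the count for the difference was 7 in place of 4, with Pou5f1, Trim28 and the brightest Sall4 probe added; the cause was not tested. Over all probes, 7946 were called in the mESC, but 4360 and 4476 within the slide rows and 4693 at an adjusted p under 0.01; in the iPSC 10398 against 6398 at 0.01, and for the difference 8508 against 4487. Without the filter on dim probes, 5739 of all 55681 probes were called in the mESC. With slide row as a block, 9884 of all 37071 were called for the difference. Over all probes, leaving out 1 array gave 6633 to 7863 called in the mESC. It gave 6952 to 10300 in the iPSC and 5703 to 7957 for the difference. The Sall4 probe at 168580437 lost its difference call within slide row 1 (0.96, adjusted p = 0.0802, limma).

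With the replicate number as a block, 8007 of 30691 probes were called in the mESC and 9529 of 36712 in the iPSC. For the difference 7396 of 37071 were called. Among the member probes the same block of replicate numbers gave 3, 7 and 6. The numbers were not taken to pair the samples: deviations of same-numbered mESC arrays correlated at 0.112, 0.122, 0.0963 and 0.0675, not every array was most like its own number, and correlations were positive within and negative between slide rows. In the iPSC the correlation was 0.00665.

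With 2 arrays per iPSC group, members not called there are not shown to be unchanged. No probe of the members was saturated, and 12 of 13 were well above background on every array.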
